A study of Mus musculus with 15 samples.

Results

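The genes described here encode the proteasome, the protease of the cytosol and nucleus that degrades ubiquitin-tagged proteins. They were taken by symbol, as protein-coding mouse genes named Psma, Psmb, Psmc, Psmd, Psme, Psmf or Psmg and a digit, without use of any measured value. The rule found 51 of the 21883 protein-coding genes on chromosomes 1 to 19, X and Y of a RefSeq table of GRCm38.p6 (mm10). Of these, 49 encode subunits, activators, the inhibitor or assembly chaperones. The other two, Psmc3ip, a factor of homologous recombination, and Psme3ip1, a binding partner of the activator encoded by Psme3, carry matching symbols and are not part of the proteasome.

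The series concerns the kinase mTOR in haematopoietic stem cells (HSC), and ATAC-seq, in which a transposase cuts accessible DNA, was available as 3 lists of peaks, 1 library per genotype. WT was Mx1-Cre-/-;mTORflox/flox, KO was Mx1-Cre+/-;mTORflox/flox, and KI was Mx1-Cre+/-;mTORflox/knockin, all from adult mice given poly(I:C). Cells were sorted by FACS and 50000 of them entered a transposition of 30 min at 37 °C. The Mx1 promoter that drives Cre responds to interferon, which poly(I:C) induces, so that every group, WT included, had received an interferon inducer. It is active in many cell types besides HSC. Cre was present in both mutants and absent from WT, and the labels call the WT and KO libraries re-analyzed and the KI library not. An effect of Cre in the mutants, or of a batch in KI, and one of the mTOR alleles cannot be told apart. Since each genotype has a single library, there is no replicate error and no test, and each difference below is between libraries.

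The WT list held 17316 peaks, the KO list 19189 and the KI list 28391, at unknown read depth. Over the annotated start of Mtor a peak lay in WT (score 341.21) and KI (score 210.27), and none in KO. Of 15 HSC marker genes, among them Kit, Mecom and Procr, 9 had a peak within 1 kb of a gene end in the WT list, 5 in that of KO and 9 in that of KI. Markers of granulocytes and monocytes had one in 1 of 10 genes in WT, 0 in KO and 6 in KI, and erythroid markers in 2, 3 and 6 of 10. B lymphoid markers had one in 1, 0 and 2 of 5, and T and NK markers in 1, 2 and 3 of 6. Dendritic markers had one in 1, 2 and 3 of 5, and megakaryocyte markers in 3, 2 and 4 of 6. Over all protein-coding genes the shares in WT, KO and KI were 44.2%, 44.1% and 51.4%. The part of these markers in the values below was not tested. Of 8 interferon response genes, 2 had a peak in WT, 3 in KO and 2 in KI.

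As background, the proteasome has a barrel-shaped core, the 20S particle, of alpha rings that gate the entry and beta rings that hold the proteolytic sites. A 19S cap recognises ubiquitin, removes it and threads the substrate inwards with a ring of ATPases. In the constitutive core the active beta subunits come from Psmb5 (chymotrypsin-like site), Psmb6 (caspase-like site) and Psmb7 (trypsin-like site). Psmb8, Psmb9 and Psmb10, which interferon can induce, take their places in the immunoproteasome and favour peptides for MHC class I. Genes of the constitutive complex are held in balance by the transcription factor Nfe2l1, which acts through antioxidant response elements. mTORC1 is known to affect both the synthesis and the activity of proteasomes.

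Promoter sequences are shown for the catalytic genes of both core types, since the comparison between them is the one the gene family offers. Psmb7 is missing because no promoter sequence was available for it. Also shown are proteasome genes whose start peak was present in some lists and absent from others. Psmc1 was added because its start peak differed widely in percentile between lists. RefSeq promoters of 300 bases (250 before to 50 after the annotated start, GRCm38.p6) matched 43 of the 51 genes. Each line gives the 120 bases before the start, 5′ to 3′ in the direction of transcription, with motif matches in capitals. For the constitutive genes Psmb5 (chr14:54617996-54618115, minus strand) and Psmb6 (chr11:70525237-70525356, plus strand) the capitals mark the core of the antioxidant response element, TGACNNNGC.

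Psmb5: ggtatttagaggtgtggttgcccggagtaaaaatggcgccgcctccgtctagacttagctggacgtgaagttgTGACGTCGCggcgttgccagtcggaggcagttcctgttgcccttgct

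Psmb6: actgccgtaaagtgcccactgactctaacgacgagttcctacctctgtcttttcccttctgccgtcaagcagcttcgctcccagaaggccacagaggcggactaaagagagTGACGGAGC

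In Psmb8 (chr17:34198075-34198194, plus strand) the capitals mark the interferon-gamma activated site TTCNNNGAA. In Psmb9 (chr17:34187331-34187450, minus strand) they mark the Sp motif GGGCGG and then, on the other strand, the NF-Y motif CCAAT. In Psmb10 (chr8:105938393-105938512, minus strand) they mark the E-box CACGTG.

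Psmb8: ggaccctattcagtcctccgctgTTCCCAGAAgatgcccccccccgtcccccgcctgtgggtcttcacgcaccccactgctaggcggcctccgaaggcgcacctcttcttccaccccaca

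Psmb9: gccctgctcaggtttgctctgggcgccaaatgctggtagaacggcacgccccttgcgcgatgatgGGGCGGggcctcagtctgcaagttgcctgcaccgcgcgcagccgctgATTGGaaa

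Psmb10: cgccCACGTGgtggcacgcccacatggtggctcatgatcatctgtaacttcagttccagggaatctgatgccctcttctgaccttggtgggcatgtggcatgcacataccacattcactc

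The next sequences belong to 3 genes whose peak at the start was not in every list, and to Psmc1. Psmb4 (chr3:94886959-94887078, minus strand) and Psmg3 (chr5:139826895-139827014, minus strand) had a peak in WT and in neither mutant, and no searched motif lay in the bases shown. Psmd9 (chr5:123228070-123228189, plus strand) had a peak in KI alone, and its capitals mark an E-box and then an antioxidant response core that overlaps an Sp motif on the other strand. Psmc1 (chr12:100110082-100110201, plus strand) had a peak in every list, near the lowest score in KO, and its capitals mark the ETS motif CCGGAAG on the other strand.

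Psmb4: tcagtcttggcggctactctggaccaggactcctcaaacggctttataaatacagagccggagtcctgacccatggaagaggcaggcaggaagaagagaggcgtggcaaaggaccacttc

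Psmg3: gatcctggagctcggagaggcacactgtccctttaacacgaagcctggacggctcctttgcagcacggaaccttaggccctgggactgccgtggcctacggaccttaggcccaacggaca

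Psmd9: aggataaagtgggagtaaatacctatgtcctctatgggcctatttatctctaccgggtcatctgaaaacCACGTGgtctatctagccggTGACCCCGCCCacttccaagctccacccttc

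Psmc1: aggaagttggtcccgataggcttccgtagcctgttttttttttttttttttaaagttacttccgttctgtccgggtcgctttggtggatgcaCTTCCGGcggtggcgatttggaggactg

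Most of the family carried accessible chromatin at a gene end. A peak within 1 kb of either annotated end of a gene, called a gene-end peak here, was present for 43 of 51 genes in WT (84.3%, Wilson 95% interval 72.0 to 91.8). KO had one for 41 genes (80.4%, interval 67.5 to 89.0), and KI for 43 (84.3%, interval 72.0 to 91.8). The shares over all protein-coding genes in WT, KO and KI were 44.2%, 44.1% and 51.4%. All 3 lists had one for 40 members (78.4%), beside 39.2% of all genes. The intervals cover counting error over genes and nothing else. Cytosolic ribosomal protein genes, another set of housekeeping genes, had a peak in 66, 63 and 74 of 86, and mitochondrial ribosomal protein genes in 61, 63 and 70 of 78, in WT, KO and KI.

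The peaks were common and of middling strength for a promoter. The score that the authors deposited for a peak reads as 10 times the negative log10 of its p-value and depends on depth, so it was turned into a percentile within its own list. The median member stood at the 67.3 percentile in WT, 71.4 in KO and 81.6 in KI, beside 69.5, 72.0 and 78.2 for all genes with a gene-end peak. Because the lists differ in length, genes were also ranked among the 8574 that had a gene-end peak in every list, with 100 the strongest. On that scale the median of the 40 members was 42.5 in WT, 44.3 in KO and 44.7 in KI, where the median of all such genes is near 50 by construction. In the top 10% of scores lay 4 of 43 members in WT (9.3%, beside 18.4% of all genes), 6 of 41 in KO (14.6% beside 19.9%) and 5 of 43 in KI (11.6% beside 25.7%). In the top 25% lay 14 in WT (32.6% beside 42.4%), 16 in KO (39.0% beside 45.5%) and 28 in KI (65.1% beside 55.8%).

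**Figure D1:**
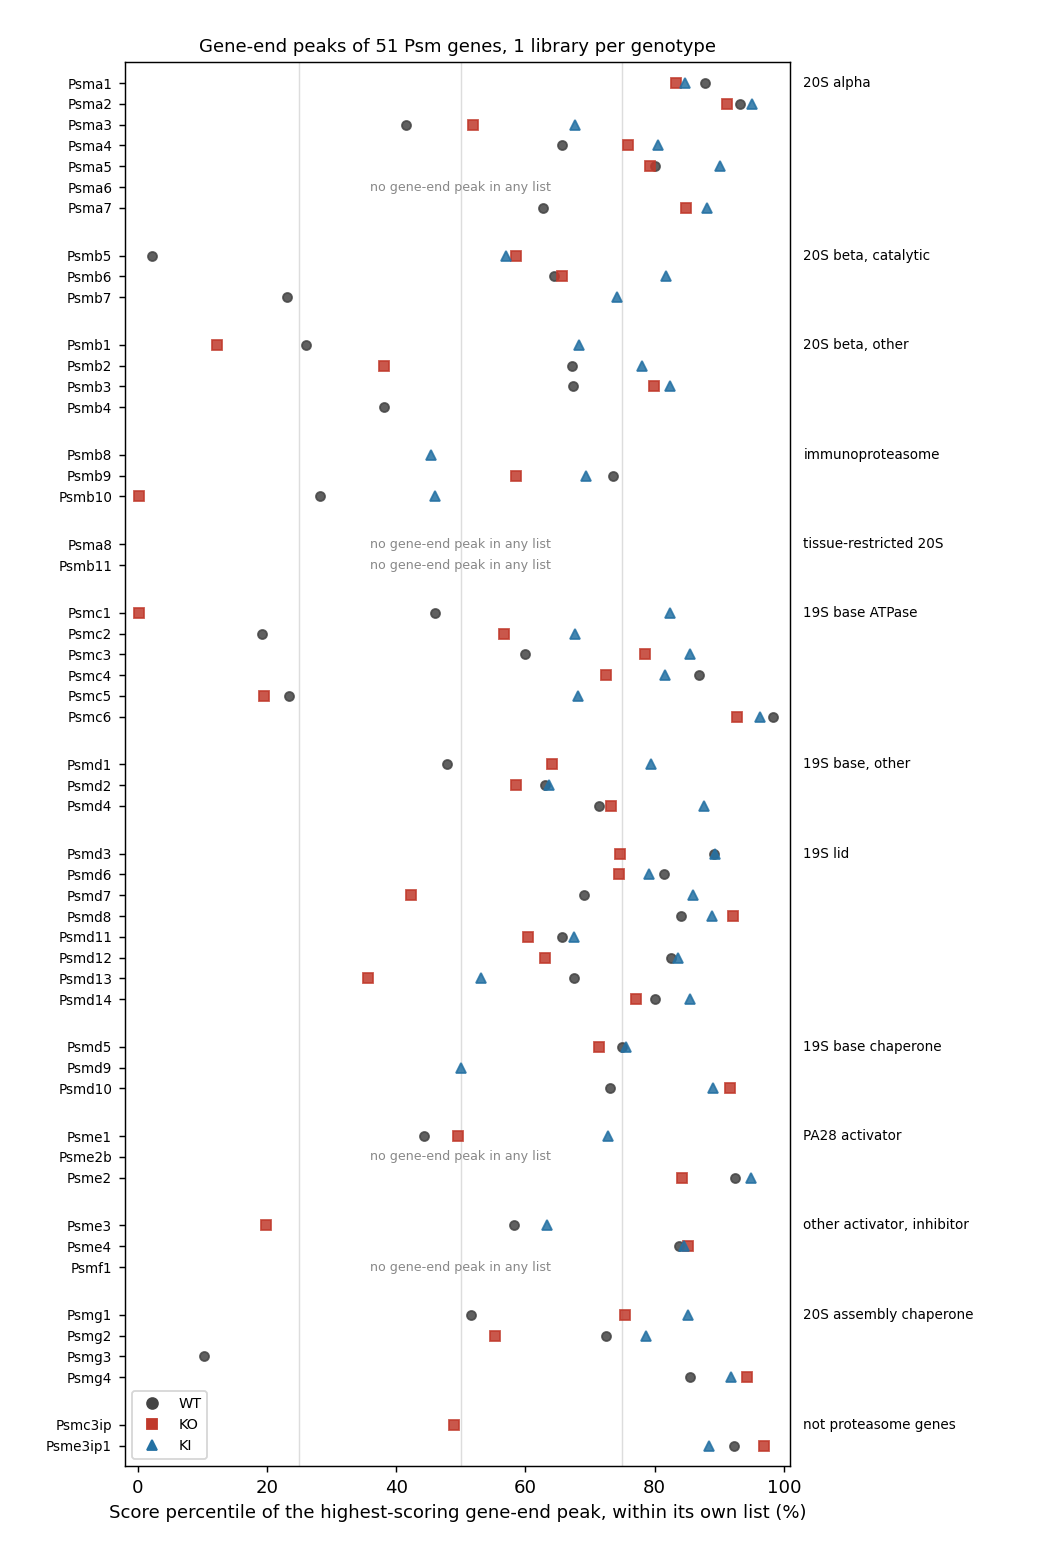
Score percentile, within its own list, of the highest-scoring gene-end peak of each of the 51 genes, ordered by role, with 1 point per library (WT circles, KO squares, KI triangles). A missing symbol means no gene-end peak in that list. The lowest KI point is that of Psmb8 at 45.3, while WT and KO have points down to 2.21 and 0.222.

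Psmc6, an ATPase of the 19S base, had the highest percentile in WT (98.2, score 395.29, 901 bp wide). In KO its percentile was 92.8 (242.69, 983 bp) and in KI 96.3 (404.58, 1072 bp). Next in WT and in KI came Psma2, an alpha ring subunit (93.2 in WT, 91.2 in KO and 95.03 in KI), and Psme2, a subunit of the PA28 activator (92.4, 84.3 and 94.9). In KO the highest was Psme3ip1 (96.97), followed by Psmg4, a chaperone of alpha ring assembly (94.4). At the other end stood Psmb5 in WT (2.21), Psmc1 in KO (0.222) and Psmb10 in KO (0.237). These last peaks had scores of 51.3, 50.11 and 50.12, just above the lowest score in the lists, 50.

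No gene-end peak was found in any list for 5 genes (9.8%, beside 46.1% of all genes). Psma8 and Psmb11, core subunits restricted to testis and thymus, and Psme2b had no peak within 5 kb in any list. The other two did have peaks at a start that lies inside the annotated gene span. The peak over the inner of the RefSeq starts of Psma6, an alpha ring subunit, ran from 55398412 to 55399089 of chromosome 12 in WT (score 176.12) and scored 174.41 in KO and 301.82 in KI. That of Psmf1, the proteasome inhibitor, scored 78.36 in WT, 69.34 in KO and 112.53 in KI. Psma3 was a like case: the peak over its start scored 215.98, 159.59 and 182.61, and the gene-end peak counted for it was a weaker one upstream (82.67, 89.87 and 136.61).

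Counted at RefSeq starts alone, a peak within 1 kb was present for 38 of 43 members in WT (88.4%), 37 in KO (86.0%) and 38 in KI (88.4%), beside 46.7%, 46.6% and 53.8% of 17491 genes. The constitutive core and 19S genes had one in 25 of 25 in WT and in 24 in each mutant, the exception being Psmb4. The strongest such peak covered the start base itself in 36 of 38 members in WT, 36 of 37 in KO and 36 of 38 in KI. The peak centre lay at a median of -43.0 bp from the start in WT, -16.5 bp for KO and -0.5 bp for KI, negative values lying upstream.

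Few members had a peak in one genotype and none in another. Between WT and KO, 3 of 43 lost it (6.98%, beside 10.5% of all genes with a WT peak): Psmb4, a structural beta subunit, Psmb7 and Psmg3, a core assembly chaperone. Psmc3ip gained one, 1 of 8 (12.5%, beside 8.22%). Between WT and KI, 2 of 43 lost it (4.65%, beside 3.29%), Psmb4 and Psmg3, and 2 of 8 gained one, beside 15.5%, Psmb8 and Psmd9, a chaperone of base assembly. Between KO and KI, Psmc3ip lost it (1 of 41, 2.44%, beside 3.25%), and Psmb7, Psmb8 and Psmd9 gained one (3 of 10, 30.0%, beside 15.6%). None of these peaks overlapped a peak of the other list. The counts are small and not far from the share over all genes.

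Psmb4 had a WT peak over its start on chromosome 3 from 94886707 to 94887206 (score 78.72, percentile 38.1), and neither mutant list had a peak within 1 kb of its ends. The WT peak of Psmg3 lay on chromosome 5 from 139826657 to 139827000 (56.12, percentile 10.3), with none in KO or KI. For Psmb7 the WT peak lay over the right annotated end of the gene at 38643827 to 38644268 of chromosome 2 (65.05, percentile 23.1), and the KI peak overlapped it at 38643504 to 38644227 (163.26, percentile 74.1). In KO the nearest peak was at 38645888 to 38646245 (77.28), outside the 1 kb window, and with a window of 2500 bp Psmb7 is not counted as lost. The Psmd9 peak of KI lay over its start on chromosome 5 (123227931 to 123228362, score 93.25, percentile 49.98). The Psmc3ip peak of KO lay over its start on chromosome 11 (101095291 to 101095660, 85.87, percentile 49.0).

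Each of the lost peaks scored at or below the median of the list that had it. Among members whose WT score was at or below the median of the WT list, 3 of 12 had no KO peak, beside 29.9% of all such genes, and 2 of 12 no KI peak (16.7%, beside 10.2%). Among the 31 members above that median, 0 lost the peak in KO, beside 2.88% of all such genes, and 0 in KI, beside 0.562%. Whether weaker signal lay below the score threshold in the other list could not be read from peak lists.

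**Figure D2:**
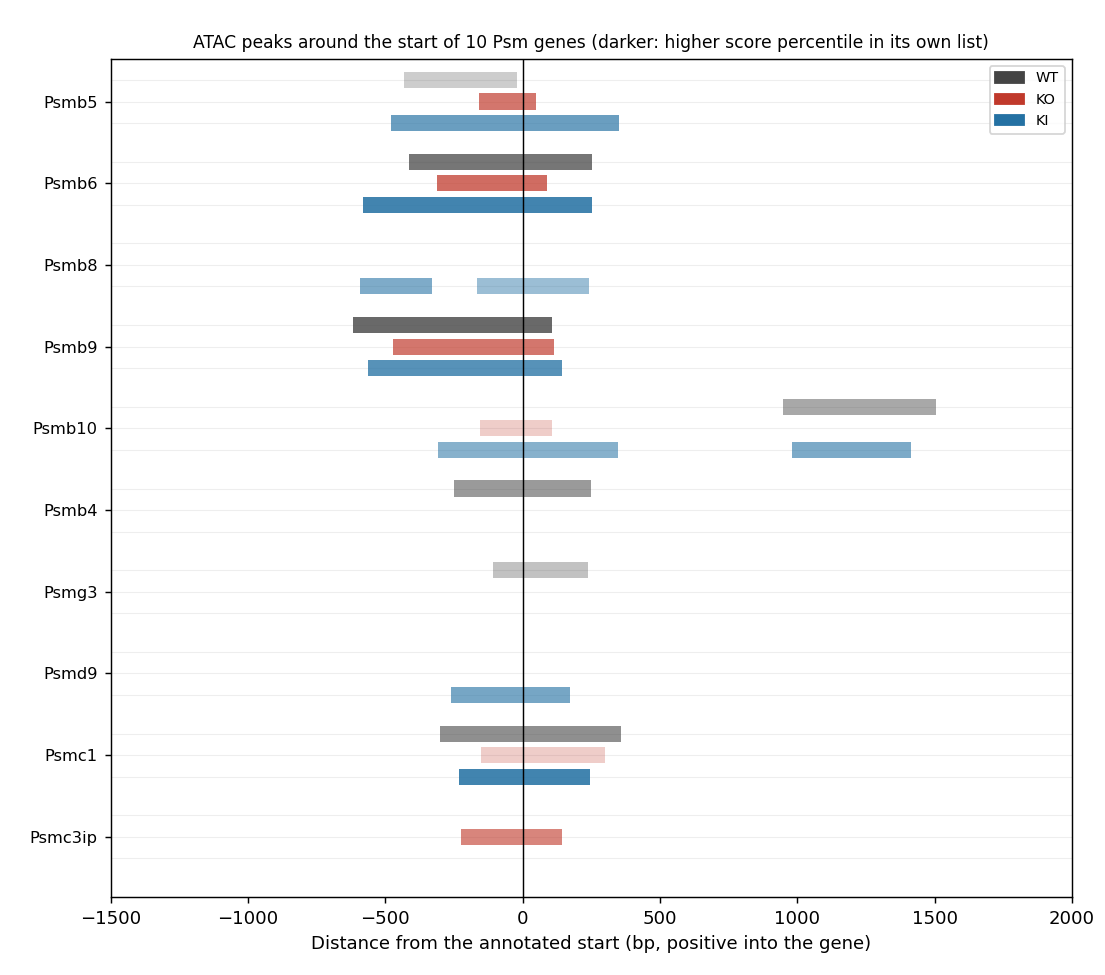
Peaks around the annotated start of 10 genes by distance from it in bp, drawn to scale as bars, 1 row per library (WT grey, KO red, KI blue), with darker bars for a higher score percentile. Psmb4 and Psmg3 show a bar in WT alone, Psmd9 and Psmb8 in KI alone, Psmc3ip in KO alone, and the WT bar of Psmb10 lies inside the gene.

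The catalytic genes of the constitutive core differed among themselves. For Psmb5, the chymotrypsin-like subunit, the WT peak was 412 bp wide (percentile 2.21), the KO peak 207 bp (58.6) and the KI peak 829 bp (56.9). The WT peak of Psmb5 ended upstream of the start and the others covered it. For Psmb6, the caspase-like subunit, the widths were 668, 403 and 836 bp (percentiles 64.4, 65.7 and 81.7), all over the start. On the rank scale Psmb5 stood at 0.467 in WT, 26.9 in KO and 8.97 in KI, and Psmb6 at 36.9, 35.6 and 43.9. Both genes thus had their widest peak in KI and their narrowest in KO, and Psmb7 had none in KO.

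The immunoproteasome genes were covered less evenly. Psmb8, the counterpart of Psmb5, had no peak within 5 kb of its ends in WT or KO. In KI it had one of 263 bp upstream (86.03, percentile 45.3) and one of 409 bp over the start (66.55, percentile 27.4). A further KI peak of 269 bp lay past the end of the gene (34204392 to 34204660 of chromosome 17, 70.8, percentile 32.1). That peak was outside the 1 kb window of Psmb8 and was not counted for it. It lay within 1 kb of an end of the neighbouring gene Tap2. Psmb9, the counterpart of Psmb6, had a peak over its start in every list. It was 725 bp wide in WT (150.68, percentile 73.5), while KO had 586 bp (99.92, 58.5) and KI 708 bp (143.55, 69.4). This peak also covered an annotated end of Tap1, so it cannot be given to 1 gene. Tap1 encodes a peptide transporter for MHC class I and is transcribed away from Psmb9 from the same region. On the rank scale Psmb9 was at 50.3 in WT, 26.7 in KO and 19.8 in KI.

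Psmb10, the counterpart of Psmb7, had different peaks in different lists. In WT the peak lay inside the gene, 948 to 1504 bp past the start (69.07, percentile 28.2), and reached the 1 kb window by a small margin. In KO the peak lay over the start (50.12, percentile 0.237), and KI had both, the inner one starting 982 bp past the start (87.03, percentile 46.0) and the other over it (78.75, percentile 39.6). With a window of 500 bp Psmb10 has no WT peak and is counted as gained in both mutants. Neither the width nor the rank of Psmb10 compares like with like across lists.

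Set side by side, of the 31 constitutive core and 19S genes 30 had such a peak in the WT list, 28 in KO and 29 in KI. Of the 3 immunoproteasome genes 2, 2 and 3 had one. Median percentiles were 66.5, 69.1 and 81.7 for the constitutive genes and 50.9, 29.4 and 46.0 for the immunoproteasome genes. The latter medians rest on 2 or 3 genes with 1 library each, and describe those genes only. At equal list length Psmb10 dropped out of KO, so that the KO value, then of Psmb9 alone, was 54.0. The KI value, of 3 genes, was 11.4. KO then stood above KI, but the values do not rest on the same genes. With a window of 500 bp the WT value, then of Psmb9 alone, was 73.5.

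Of the PA28 genes, whose products cap the core after interferon exposure, Psme1 and Psme2 had peaks in all 3 lists and Psme2b in none. Psme1 had scores of 86.07 in WT, 86.65 in KO and 157.71 in KI, at percentiles 44.3, 49.5 and 72.8 and ranks 17.0, 18.8 and 24.95. Psme2 stood much higher, at ranks 84.2, 65.7 and 82.6, with a peak of 1102, 1094 and 1356 bp that also covered an end of Rnf31. Psme3, the nuclear activator, was at rank 29.8 in WT, 5.3 in KO and 13.5 in KI. The peak ranked in KO lay upstream of the start (score 60.82), beside a weaker one over it (50.42). Those of WT and KI covered the start, so the KO rank of Psme3 does not compare like with like. Psme4, the PA200 activator, was at 67.2, 67.4 and 51.2.

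The alpha ring genes had the strongest peaks of the core. The 6 with a gene-end peak had median percentiles of 72.8 in WT, 81.3 in KO and 86.4 in KI. Psma7 differed most between lists: its peak widths in WT, KO and KI were 723, 1260 and 2001 bp, ratios to WT of 1.74 and 2.77, and its rank was 35.0, 66.8 and 60.7. The Psma7 peak also covered an end of Ss18l1. Of the structural beta genes, Psmb1 was at rank 6.95, 2.97 and 18.5, Psmb2 at 41.0, 11.9 and 35.5, and Psmb3 at 41.2, 57.5 and 45.6, so that no common direction was seen among them.

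All 6 ATPase genes of the 19S base had a peak in every list. Psmc1, a subunit that opens the gate of the core, had a score of 88.25 in WT (percentile 46.0), 50.11 in KO (0.222) and 212.58 in KI (82.4), and ranks of 18.4, 0.0583 and 45.6. Its KO peak thus lay next to the lowest score of the list, and Psmc1 counts as lost in KO when lists are brought to equal length. Psmc4 was lower in rank in both mutants (73.1, 45.2 and 43.5) and Psmc3 higher in both (31.6, 54.9 and 53.2). Psmc5 was weak in WT (percentile 23.3) and in KO (19.6), and stood at 68.2 in KI. The gene-end peak of Psmc2 was weak in WT (19.3). WT had a stronger peak over another RefSeq start of Psmc2 (21786328 to 21787005 of chromosome 5, score 87.02, percentile 45.1). KI also had a peak over that start (21786387 to 21787091, score 113.92), weaker than its gene-end peak (137.08). The KO list had no peak over that start, so for Psmc2 the KO peak counted above is the gene-end one (score 96.98). The ubiquitin receptor gene Psmd4 was at rank 46.9, 46.3 and 59.3, and the scaffold genes Psmd1 and Psmd2 at 19.9, 33.6 and 38.2, and at 35.3, 26.8 and 13.7.

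The lid of the 19S cap, which carries the deubiquitinase, had the largest median shift in rank of any role between WT and KO. All 8 lid genes had a peak in every list. The median rank was 62.1 in WT, 40.3 in KO and 51.2 in KI. In KO, 7 of the 8 ranked below WT, all but Psmd8, with a median shift of -22.1 points. In KI, 7 of the 8 ranked below WT, all but Psmd7, with a median shift of -14.8. Psmd13, whose WT peak was divided in both mutants as described below, is among the 7 in each comparison. Over all 8574 genes 49.6% ranked lower in KO and 49.9% lower in KI, and the median shifts were 0.128 and 0.0058. Both comparisons use the same WT list, so the second is not independent of the first, and the lid was picked out after its values were seen. By percentile within the list the lid medians in WT, KO and KI were 80.7, 68.8 and 84.6, so that KI stood above WT on that scale, as the median of all genes did.

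Psmd12, a scaffold subunit of the lid, was at rank 65.2 in WT, 32.3 in KO and 48.8 in KI, and Psmd13 at 41.4, 10.7 and 6.9. The Psmd13 peak of WT (953 bp) was divided in both mutants, into peaks of 516 and 517 bp in KO and of 464 and 534 bp in KI. Only the higher-scoring part was ranked in the mutants (517 bp in KO and 534 bp in KI). Neither the width nor the rank of Psmd13 thus compares like with like across lists. In every list the ranked peak also covered an end of Sirt3. Psmd14, the deubiquitinase itself, was at 60.8, 52.5 and 53.5, and Psmd7, its partner, at 43.5, 14.3 and 54.6. Psmd3 was at 77.6, 48.6 and 64.3, Psmd6 at 63.4, 48.3 and 37.6, and Psmd11 at 38.9, 29.0 and 17.6. Psmd8 was at 68.1, 82.2 and 63.3.

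**Figure D3:**
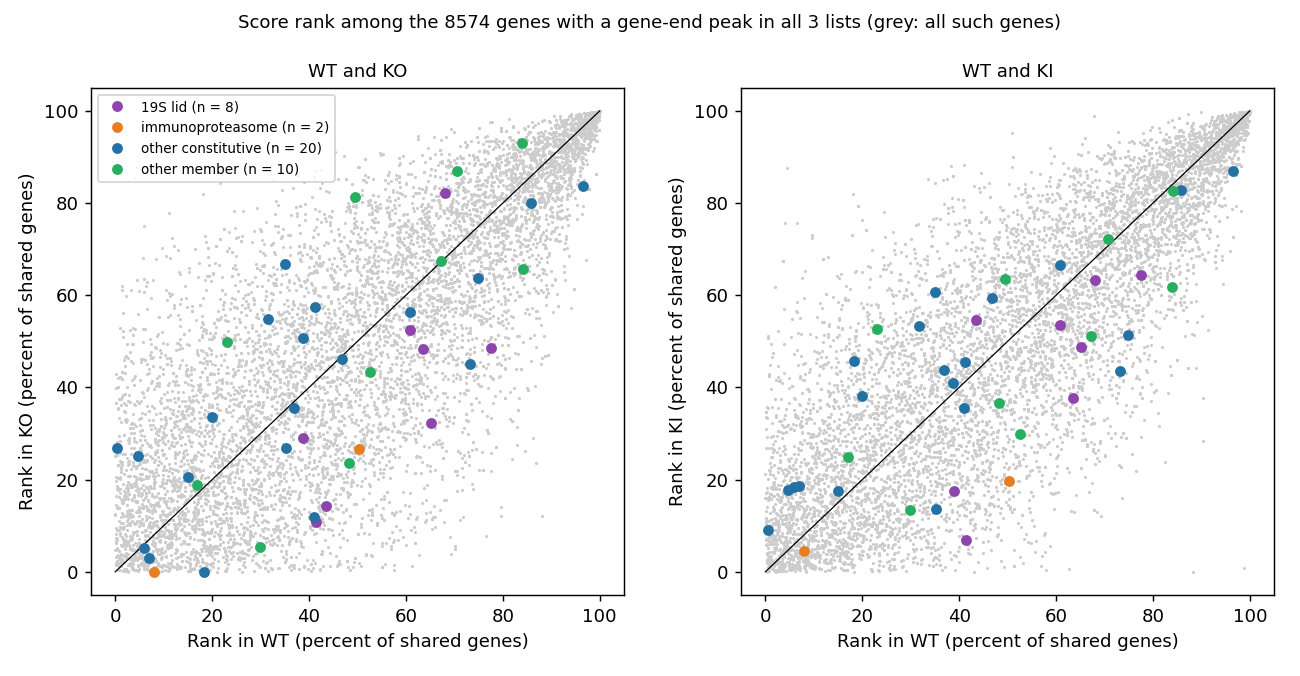
Rank of the gene-end peak in KO (left) and KI (right) against its rank in WT, in percent of the 8574 genes with a gene-end peak in all 3 lists (grey), with the 40 members in colour by role and the line of equal rank. Both panels share the WT axis. In each panel 7 of the 8 lid genes lie below the line.

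Over the whole family ranks moved both ways. In KO, 25 of 40 members ranked lower than in WT (62.5%, beside 49.6% of all genes), with a median shift of -5.1 points beside 0.128. In KI, 21 of 40 ranked lower (52.5%, beside 49.9%), with a median shift of -2.32 beside 0.0058. By at least 10 points, 11 of 40 members ranked higher in KO than in WT (27.5%, beside 26.1% of all genes) and 14 lower (35.0%, beside 26.2%). In KI the counts were 11 higher (27.5%, beside 23.9%) and 14 lower (35.0%, beside 23.8%). Between WT and KO the largest shifts up were those of Psma7 (31.9 points) and Psmd10, the base chaperone also known as gankyrin (31.7). The largest shifts down were those of Psmd12 (-32.9) and Psmd13 (-30.6). Between WT and KI the largest shifts up were those of Psmg1, an assembly chaperone (29.6), and Psmc1 (27.3). The largest down were those of Psmd13 (-34.5) and Psmb9 (-30.5). Both Psmd13 shifts set an undivided WT peak against the higher-scoring part of a divided one. Psmd13, Psmb10 and, for KO, Psme3 stay in the counts of lower ranks, though their peaks do not compare like with like.

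Assembly chaperones also differed among themselves. Psmg1 was at rank 23.1 in WT, 49.8 in KO and 52.7 in KI, Psmg2 at 48.3, 23.6 and 36.5, and Psmg4 at 70.6, 87.1 and 72.3. Of the base chaperones, Psmd5 was at 52.6, 43.4 and 29.9 and Psmd10 at 49.5, 81.2 and 63.5.

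Median peak width was shorter in KO and longer in KI than in WT, as it was over all genes. The median member peak in WT, KO and KI had 689, 672 and 724 bp, beside 739, 684.5 and 762 bp for all genes with a peak. For genes with a peak in both lists, the median ratio of KO to WT width was 0.839 for 40 members and 0.942 for all genes, and that of KI to WT was 1.12 for 41 members and 1.08 for all genes. In KO, 7 members were at least 1.5 times narrower (17.5%, beside 15.1%) and 2 at least 1.5 times wider (5.0%, beside 6.9%). The wider ones were Psmd6 (ratio 1.75) and Psma7. The smallest ratios were those of Psmb10 (0.472), which compares different peaks, and Psmb5 (0.502). In KI, 6 members were at least 1.5 times wider (14.6%, beside 15.5%), led by Psma7 and Psmb5 (2.01). At least 1.5 times narrower were 2 (4.88%, beside 6.5%), Psmb1 (0.667) and Psmd13 (0.56), whose WT peak was divided in KI. Between KO and KI, 32 of 40 member peaks were wider in KI (80.0%, beside 69.7%).

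**Figure D4:**
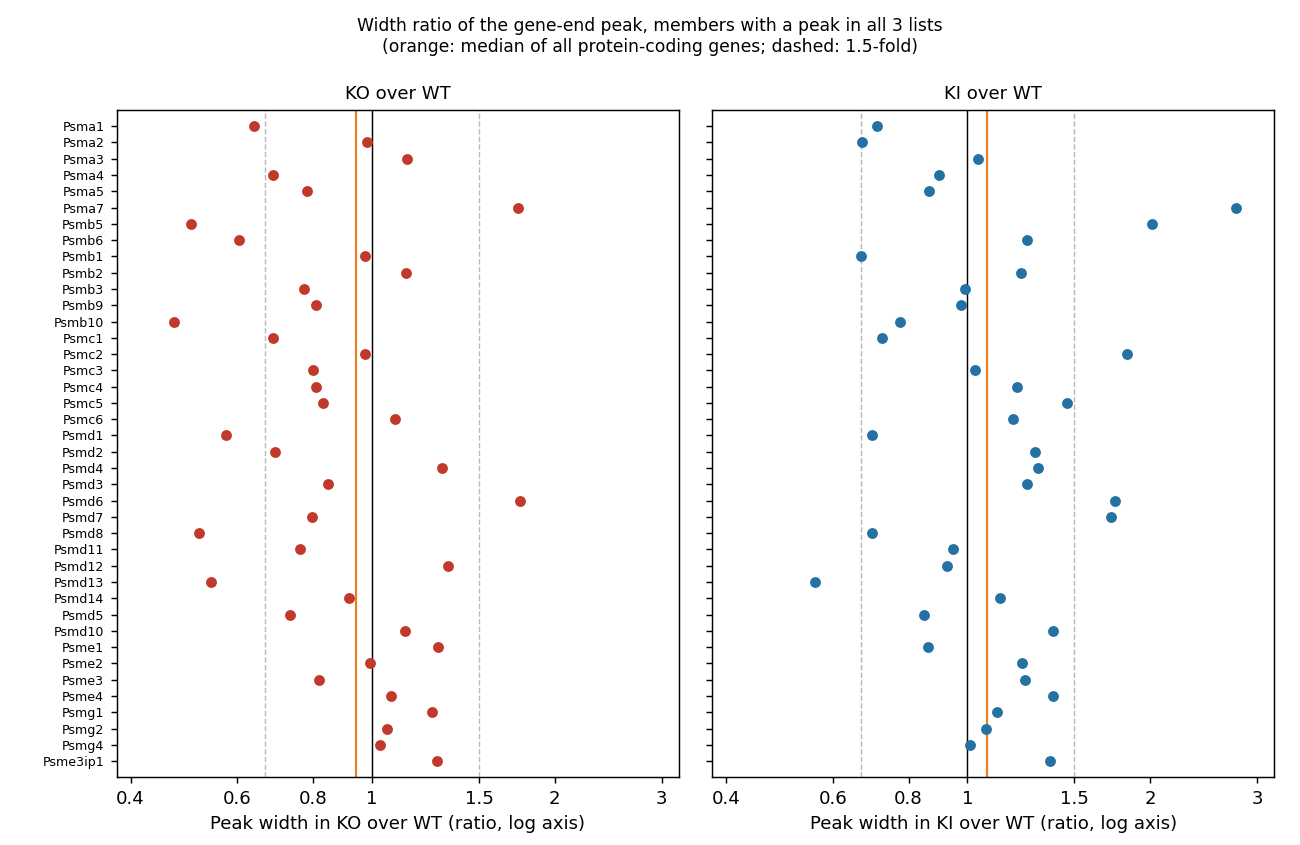
Ratio of gene-end peak width to WT in KO (left) and KI (right), on a log axis, for the 40 members with a peak in all 3 lists, with the median of all genes in orange and 1.5-fold dashed. Psmd6 and Psma7 lie beyond 1.5-fold on the wide side in KO, and Psma7 has the highest ratio in KI (2.77).

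Some member peaks are shared with a neighbour. In each list 10 member peaks also covered an annotated end of another gene (23.3% of members in WT, 24.4% in KO and 23.3% in KI, beside 22.9%, 22.2% and 21.4% of all genes). Gene ends near a peak but outside it were not counted. They were those of Psma2 (with Mrpl32), Psma4, Psma7, Psmb9, Psmc2 (with Dnajc2), Psmc5 (with Ftsj3), Psmd13, Psme2, Psmg2 (with Cep76) and Psme3ip1 (with Rspry1). The values of these genes cannot be assigned to 1 promoter.

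The choice by symbol used neither promoter sequence nor any measured value. Each motif was searched on both strands of the 300 base promoters, at any listed start of a gene. The ETS motif CCGGAAG was in 16 of 43 member promoters (37.2%), beside 12.9% of all 17491. Among the 25 constitutive promoters it was in 10 (40.0%), close to the share over all members. These were Psmc1, Psmc2, Psmc6, Psmd2, Psmd4, Psmd6, Psmd11, Psmd12 and Psmd13 of the 19S cap, and Psma6 of the core. The match of Psma6 lies at its inner start, the one with the peaks described above. The antioxidant response core TGACNNNGC was in 6 (14.0%, beside 14.8%): Psmb5 and Psmb6 as shown above, Psmc6, Psmd9, Psmd12 and Psme4. The Sp motif GGGCGG was in 24 (55.8%, beside 49.2%) and the NF-Y motif CCAAT in 16 (37.2%, beside 42.3%). The E-box CACGTG was in 5 (11.6%, beside 8.91%), the YY1 motif AAGATGGCG in 2 (4.65%, beside 2.14%), and the palindrome of nuclear respiratory factor in 2 (4.65%, beside 1.47%).

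Of the interferon motifs, the stimulated response element (ISRE, with GAAA, any 2 bases and GAAA) was in 5 member promoters (11.6%, beside 3.94%): Psmb3, Psmd4, Psmd9, Psme1 and Psmg4. The activated site TTCNNNGAA was in 3 (6.98%, beside 8.92%): Psmb8, Psmd2 and Psmg1. The NF-kB site of the immunoglobulin kappa enhancer and the CRE TGACGTCA were in 0 of 43, beside 0.177% and 2.54%. At the first listed start of each gene, the ratio of observed to expected CpG had a median of 0.799 in 25 constitutive promoters, 0.523 in the 3 immunoproteasome promoters and 0.577 in all. GC content was alike, at 56.7%, 55.3% and 56.3%. A match is a string of letters and not a measured binding site.

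**Figure D5:**
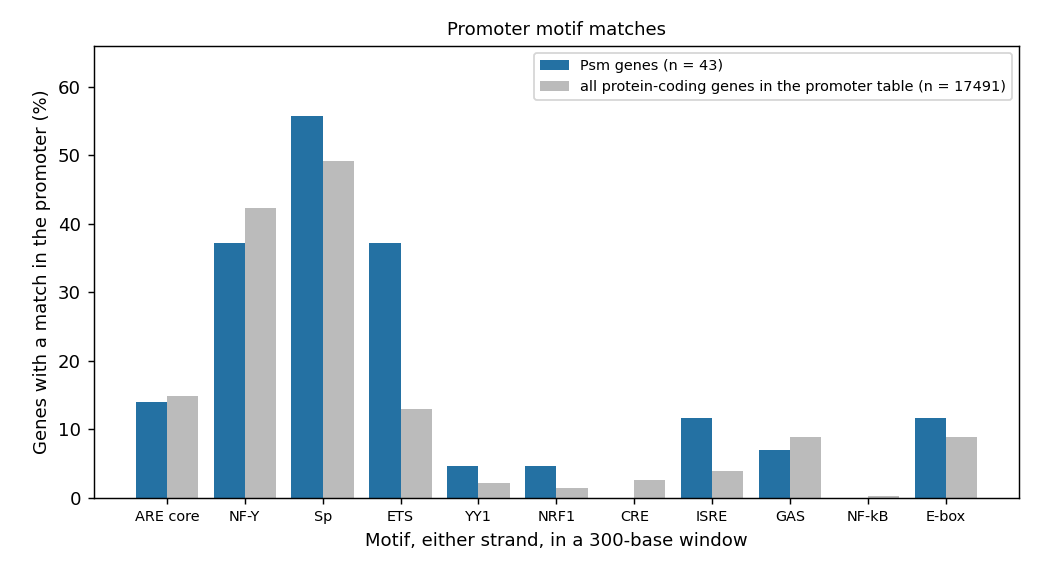
Share of promoters (300 bases, either strand) that hold each of 11 motifs, for the 43 members in the RefSeq promoter table (blue) and for all 17491 protein-coding genes in it (grey). The ETS bar of the members stands at 37.2% beside 12.9%, and those of the antioxidant response core at 14.0% and 14.8%.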

How the data were processed

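The 3 ATAC-seq files held 1 peak per line in 5 columns, and each list came from 1 library, not from pooled samples. Column 5 holds a score, deposited by the authors, that has the form written by MACS and is nowhere below 50. CASAVA and the build mm10 are named in the submitters' processing notes. What is not given in the sources used here is the aligner, the version of MACS, how duplicates were treated, whether reads were shifted for the transposase, and whether a control was used. Depth could not be had from peak lists, and a deeper library yields more and wider peaks. The 12 RNA-seq samples, 4 per genotype, were not analysed here.

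Peaks were taken to 1-based coordinates, and the highest-scoring peak within 1 kb of either annotated gene end was kept per gene (pandas 2.3.3, numpy 2.4.6). Scores were used only to filter peaks and to rank them within their own list. Lost means a gene-end peak in the first list and none in the second, gained the reverse. The search was checked on simulated lists. Named genes were the catalytic and PA28 genes, those lost, gained or without a peak, and the extremes in percentile, width ratio and rank shift; values of other genes of a role were added after they were seen. The symbol rule used no measured value, but members and lists were chosen with earlier results of these data known. Strand and sequence came from RefSeq promoters, which lack 8 members (Psma8, Psmb1, Psmb2, Psmb7, Psmc3, Psmd3, Psmd7 and Psmg2). Alternatives were other windows, a score of at least 100, equal list length, starts alone, other percentiles and other overlap rules, and 1 added after seeing the data, gene ends together with starts. Results of the lists of other antigen processing genes and of proteasome partners are not reported here.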

Additional observations from a re-analysis of the deposited data

How the results depend on the processing

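Of 144 values recomputed under alternatives, 121 stayed within 1.5 times the reported count, or within the binomial 95% interval of the median over genes (their range where under 6 genes had a peak), and 23 moved. Some of the 121 could hardly move. The overlap rules could not change the counts, since no lost or gained peak overlapped a peak of the other list. For the 2 immunoproteasome genes with a KO peak the range was wide, from percentile 0.237 to 58.5. With a score of at least 100, KO had 26 members with a peak. The counts from WT to KO were then 7 lost and 3 gained, from WT to KI 1 lost and 10 gained, and from KO to KI 0 lost and 13 gained. At equal list length 5 members were lost from WT to KO (Psmb10 and Psmc1 besides Psmb4, Psmb7 and Psmg3) and 5 gained from KO to KI, and KI median percentiles were 69.9 for all members, 70.0 for constitutive and 11.4 for immunoproteasome genes. A window of 500 bp gave 2 gained from WT to KO (Psmb10 besides Psmc3ip) and an immunoproteasome median of 45.3 in KI, and taking the nearest peak gave 39.6. Without Psmc3ip and Psme3ip1, 0 were gained from WT to KO and 0 lost from KO to KI. Median percentiles in WT, KO and KI among genes with a gene-end peak were 47.2, 49.2 and 56.4, and as ranks among genes present in all lists 42.5, 44.3 and 44.7. On both scales the median of all genes is near 50 by construction, so these values are not on the scale of the list percentiles. All of them, 3 per scale, are among the 23. No paired analysis was possible because each genotype has 1 ATAC library. The cause of the 23 moves was not tested, beyond the fewer peaks or genes, or the change of scale, that an alternative brings by construction. Unknown depth limits every statement on absence.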
